A study of Mus musculus with 19 samples.

Results

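The deposited gene table of this mouse leukemia series holds 159 rows whose names begin with Hsc_, among 23458 gene names in all. Each row is a multi-exon transcript model without a gene symbol, and all 159 have exon coordinates in the deposited gene models. The members were taken by name alone, and no expression value was used to pick them here. How the models were first built is not stated, so whether expression in some tissue selected them then is not known. They were labelled stem cell long noncoding RNA models. The labels do not define the prefix, and whether the models code for protein was not tested, because a genome of the files' build was not used here.

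Long noncoding RNAs are transcripts without a long reading frame that are mostly capped, spliced and polyadenylated like messenger RNAs. Many are scarce and present in few cell types, some start beside the promoter of a coding gene and run away from it, and some act on a neighbouring gene or carry a microRNA. Haematopoietic stem cells renew themselves and give rise to all blood lineages. FLT3 is a receptor tyrosine kinase of early progenitors whose internal tandem duplication (ITD) is a common lesion of acute leukemia, and DNMT3A is a de novo DNA methyltransferase that is often lost in the same disease.

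RNA was measured in 17 libraries of C57BL/6 mice, in 7 groups. A knock-in model gave unsorted bone marrow in which 1 Flt3 allele carries the duplication (Flt3+/ITD in each of its groups): 1 leukemia with ER-cre and Dnmt3af/f (KO-KI), 2 leukemias with ER-cre and Dnmt3af/+ (HET-KI) and 3 pre-leukemic marrows with Dnmt3af/f but no cre (WT-KI). A retroviral model gave CD4+CD8+ donor-derived cells, all with Mx1-cre, sorted from lethally irradiated recipients of transduced marrow. The marrow was enriched for Sca-1 for KO-ITD and WT-ITD replicate 1, enriched for ckit for KO-GFP and WT-ITD replicate 2, and whole for WT-ITD replicate 3; the labels give none for WT-GFP. Its groups were leukemias with Dnmt3af/f and MSCV_FLT3-ITD-GFP (KO-ITD, n = 4), leukemias with Dnmt3a+/+ and the same vector (WT-ITD, n = 3), thymocytes with Dnmt3af/f and MSCV_GFP (KO-GFP, n = 2) and thymocytes with Dnmt3a+/+ and MSCV_GFP (WT-GFP, n = 2). KO-ITD replicates 1 and 2 and WT-ITD replicate 2 came from marrow, and the other retroviral libraries from thymus. The labels give no ages here and do not tie replicates to animals, so a p-value here reflects spread among samples that may be technical.

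Libraries held 4933886 to 25331906 estimated counts. Levels are counts scaled to the same library total (CPM), and CPM divided by merged exon length in kilobases (RPKM) where models are compared with each other. Dnmt3a was at 36.5 to 55.0 CPM in KO-KI and HET-KI libraries and at 129.6 to 153.4 CPM in WT-KI libraries. It was at 53.0 to 126.7 CPM in KO-ITD and 180.2 to 237.7 CPM in WT-ITD libraries, and at 144.2 and 207.1 CPM in KO-GFP and 250.1 and 257.2 CPM in WT-GFP libraries. All 14 thymocyte markers (Cd4, Cd8a, Rag1 and others) averaged at least 1 CPM in each retroviral group, and their sum was 4951 to 14785 CPM in the ITD groups and 19290 to 22361 CPM in the GFP groups. In knock-in marrow that sum was 136 to 469 CPM, and Cd8b1 and Ptcra were at 0 in WT-KI. All 20 stem and progenitor markers (Kit, Mecom, Hlf and others) averaged at least 1 CPM in WT-KI, with a sum of 2241 to 3799 CPM. That sum was 448 CPM in KO-KI, 1651 and 419 CPM in HET-KI replicates 1 and 2, and 135 to 381 CPM in the retroviral libraries. In WT-GFP 6 of the 20 stem markers averaged at least 1 CPM, and Mecom and Ndn were at 0. In bulk RNA, fewer cells of a type and less RNA per cell cannot be told apart. A pair of libraries stood apart. KO-ITD replicate 3 had the highest summed level of the models, and HET-KI replicate 1 differed from HET-KI replicate 2 in its lineage markers.

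The 159 models comprise 480 transcripts. In all, 73 models have a single transcript, and the most complex has 23. Every transcript has at least 2 exons and at most 13. Models span 406 to 629698 bp (median 6890 bp) and have a merged exon length of 209 to 22572 bp (median 2260 bp). They lie on 21 chromosomes, 72 on the plus and 87 on the minus strand. Their median distance to the nearest named gene is 6398 bp. Of the 159, 43 lie within 1 kb of a gene and 18 lie more than 100 kb from any. Only 5 overlap the body of a named gene, and 2 overlap its exons (Wwox and Il1rapl2). A further 13 pairs of models overlap each other, 11 of them on opposite strands. How the counting treated strand is not stated, so reads of the 22 models in those 11 pairs cannot be told apart within a pair.

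Mouse annotation already holds part of this set. By intron lengths, strand, chromosome and neighbouring gene, 26 of the 159 matched a noncoding gene of GENCODE M21, 16 of them over at least 2 consecutive introns or the whole intron chain. The following sequences are those of the matched GENCODE transcripts on GRCm38, 5′ to 3′, around an exon junction whose intron has the same length in the model. They are shown because these models carry the comparisons described here. The 10 bases in capitals are the last 5 of one exon and the first 5 of the next.
Hsc_004540 (Gm10384, minus strand): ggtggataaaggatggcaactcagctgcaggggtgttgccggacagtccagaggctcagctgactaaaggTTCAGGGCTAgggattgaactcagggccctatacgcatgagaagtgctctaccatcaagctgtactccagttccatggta
Hsc_003288 (Gm47754, plus strand): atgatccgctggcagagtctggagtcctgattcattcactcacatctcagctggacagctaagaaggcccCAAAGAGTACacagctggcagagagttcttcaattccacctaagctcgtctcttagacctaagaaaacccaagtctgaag
Hsc_008211 (4930481B07Rik, plus strand): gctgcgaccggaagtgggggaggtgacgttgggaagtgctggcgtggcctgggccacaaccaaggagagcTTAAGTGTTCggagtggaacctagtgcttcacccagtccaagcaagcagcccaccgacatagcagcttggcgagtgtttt
Hsc_010405 (AI480526, minus strand): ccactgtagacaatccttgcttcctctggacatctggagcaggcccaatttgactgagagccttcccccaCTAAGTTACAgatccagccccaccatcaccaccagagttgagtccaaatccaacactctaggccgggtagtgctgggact
Hsc_008352 (4930519L02Rik, plus strand): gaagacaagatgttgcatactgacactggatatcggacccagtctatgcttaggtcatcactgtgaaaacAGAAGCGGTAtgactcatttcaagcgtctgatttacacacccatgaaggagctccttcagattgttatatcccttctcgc
Hsc_003288 and Hsc_008211 have a single intron and were matched by it. The match of Hsc_010405 holds its whole chain of 2 introns, that of Hsc_008352 shares 2 introns and that of Hsc_004540 shares 1 intron of 7270 bp. No coordinates were carried between the builds.

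Divergent starts were common. Of the 159 models, 47 lie head to head with their nearest gene, and in 26 the 2 starts are within 1 kb of each other, the closest being 10 bp apart. For 13 of these 26 neighbours RefSeq (GRCm38.p6) gives a single promoter window of 300 bases, 250 before and 50 after the gene's start. These windows held a median of 21 CG dinucleotides (range 6 to 40), against a median of 7 over all 32851 mouse windows. CG was searched as the letters CG, which read the same on both strands. At least 15 CGs were found in 11 of the 13 windows (84.6%) and in 34.6% of all windows. Birc6, which encodes a large inhibitor of apoptosis, starts 10 bp from Hsc_005973, and Col16a1, a collagen gene, starts 69 bp from Hsc_009460. Their windows are printed because in the deposited models the 2 starts lie that close, with each CG in capitals.
Birc6 (GRCm38.p6, chr17:74528045-74528344, plus strand, 21 CGs): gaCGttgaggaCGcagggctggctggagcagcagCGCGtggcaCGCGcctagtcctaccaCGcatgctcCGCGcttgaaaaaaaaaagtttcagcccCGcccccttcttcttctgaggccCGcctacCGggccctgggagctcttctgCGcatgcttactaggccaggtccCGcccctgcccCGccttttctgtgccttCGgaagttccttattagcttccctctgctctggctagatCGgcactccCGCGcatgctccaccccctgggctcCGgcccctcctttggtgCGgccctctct
Col16a1 (GRCm38.p6, chr4:130047590-130047889, plus strand, 24 CGs): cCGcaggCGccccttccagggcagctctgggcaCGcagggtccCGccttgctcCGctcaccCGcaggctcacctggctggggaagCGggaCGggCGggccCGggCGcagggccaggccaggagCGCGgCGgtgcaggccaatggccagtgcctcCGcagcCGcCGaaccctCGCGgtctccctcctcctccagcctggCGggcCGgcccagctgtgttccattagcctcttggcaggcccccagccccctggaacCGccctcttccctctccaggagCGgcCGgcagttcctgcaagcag
In CPM, Hsc_005973 ran against Birc6 across the 17 libraries (Pearson r of log2 CPM, -0.887) and Hsc_009460 ran with Col16a1 (0.879). These r values describe libraries that share model, tissue and depth, and both models were chosen after their values were seen.

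The models were scarce. The median over the 159 models of the group-median RPKM was 0.0903, and 21 models reached 1 RPKM. At least 5 counts were found for 44 to 109 models in a library (median 67). In all, 114 models reached 1 CPM and 33 reached 10 CPM in at least 1 library. The filter on low counts kept 132 of the 159 for tests. The 27 others had 0 to 45 counts over all libraries and never more than 0.943 CPM. Hsc_011614 had no count anywhere, while 24 of the 27 had at least 1 count in WT-KI marrow. The 159 together took 255 CPM in the KO-KI library, 662 and 553 CPM in HET-KI, 442 to 814 CPM in WT-KI, 412 to 1808 CPM in KO-ITD, 461 to 543 CPM in WT-ITD, 443 and 616 CPM in KO-GFP and 377 and 509 CPM in WT-GFP.

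By median RPKM over the 7 groups, the highest models were Hsc_002439 (14.5), Hsc_006044 (12.8), Hsc_004540 (6.13), Hsc_010405 (5.42), Hsc_010135 (3.88), Hsc_006219 (2.87), Hsc_000594 (2.67), Hsc_002417 (2.66), Hsc_003288 (2.58) and Hsc_008871 (2.35). Hsc_002439 lies 188 bp downstream of Appbp2 on the same strand (mm9, chr11:85000775-85004624) and was present in every library. It had 47.7 CPM in the KO-KI library, 50.5 and 38.9 CPM in HET-KI, 68.8, 86.1 and 73.7 CPM in WT-KI, and 37.8 to 60.6 CPM in the retroviral libraries. Whether it is a separate RNA or an extension of Appbp2 transcripts was not tested. Hsc_010135 starts head to head with Ept1, a phospholipid synthesis gene, and Hsc_002417 starts 76 bp from Lig3, which encodes a DNA ligase. Hsc_010135 stayed within 1.88 to 8.18 CPM, and Hsc_002417 ranged from 0.639 CPM in KO-GFP replicate 1 to 9.23 CPM in HET-KI replicate 1.

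The group with the highest mean differed from model to model. Of the 159, 47 were highest in HET-KI and 63 in WT-KI, against 14 in KO-ITD, 13 in KO-GFP, 9 in WT-ITD, 9 in WT-GFP and 3 in KO-KI. HET-KI and WT-KI together were highest for 110 models, 69.6% of the 158 with any count, where 33.5% of all gene names with a count were highest in either. Among those whose highest mean reached 1 CPM, the shares were 62 of 95 models (65.3%) and 32.6% of all gene names. Group specificity was measured by tau, which is 0 for equal group means and 1 for a model seen in 1 group. Among models reaching 1 CPM, the largest tau per peak group belonged to Hsc_002614 in WT-KI (1.0), Hsc_010757 in HET-KI (0.977), Hsc_004576 in WT-ITD (0.886), Hsc_000594 in KO-ITD (0.880), Hsc_007931 in KO-GFP (0.823), Hsc_010791 in WT-GFP (0.605) and Hsc_011312 in KO-KI (0.348). Several rested on 1 library. Without KO-ITD replicate 3, Hsc_000594 had a tau of 0.429 and was highest in KO-GFP, and without HET-KI replicate 1 Hsc_010757 had 0.774. Hsc_002614, near the potassium channel gene Kcnj2, had 0.355, 3.39 and 0 CPM in WT-KI and no count elsewhere.

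**Figure D1:**
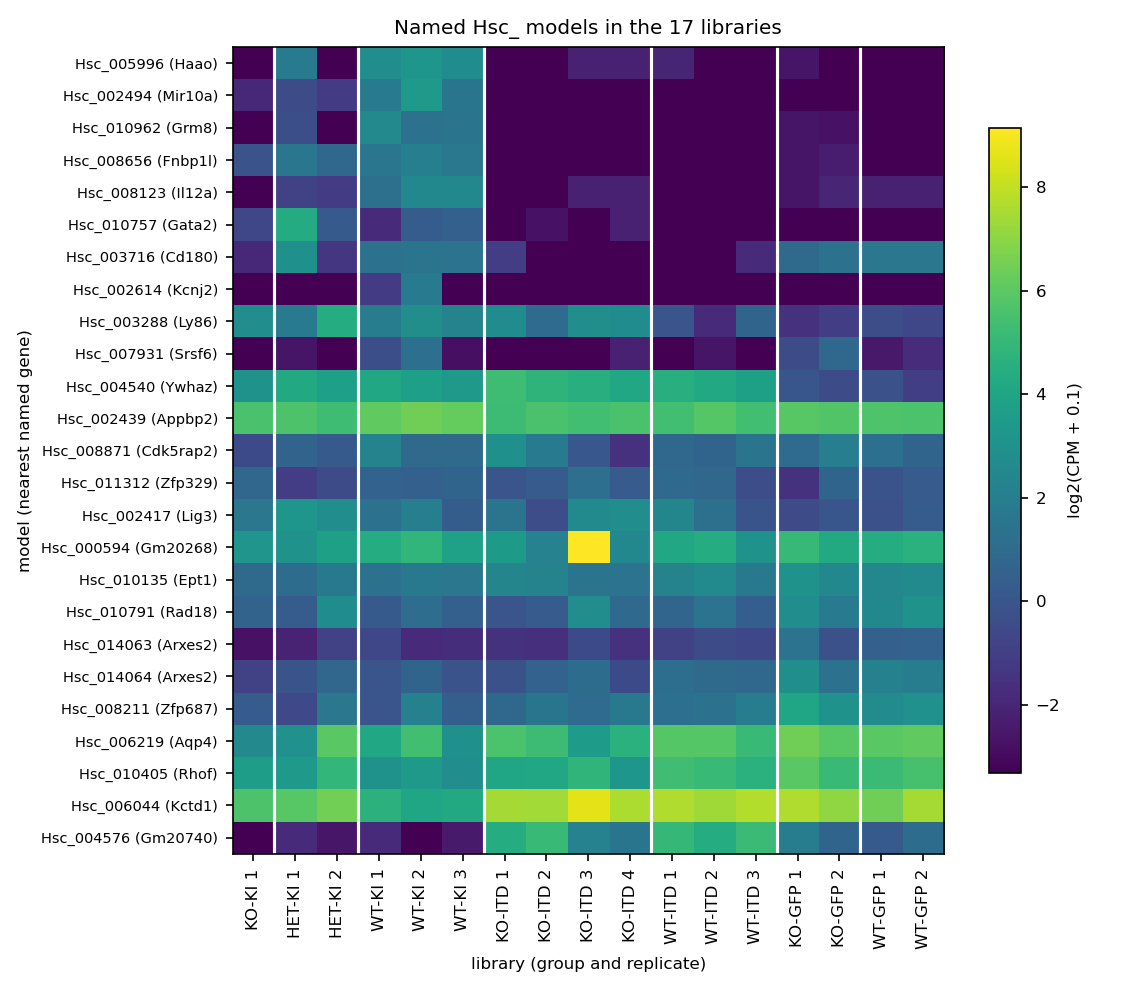
Level of each named model (rows, with its nearest named gene in brackets) in each of the 17 libraries (columns, grouped by white lines), as log2(CPM + 0.1) on the colour scale. Hsc_002439 and Hsc_006044 were present in every library, the rows at the top were counted mainly in knock-in marrow, and Hsc_000594 stood out at 568.8 CPM in KO-ITD replicate 3.

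The first question was which models differ between FLT3-ITD leukemia and normal thymocytes of the same Dnmt3a genotype. Between KO-ITD and KO-GFP the enrichment of the transduced marrow (Sca-1 and ckit) cannot be told apart from leukemia. Each KO-ITD library also differed from KO-GFP in tissue or submission. Among models, 2 were higher and 7 lower in KO-ITD leukemias than in KO-GFP thymocytes (edgeR's quasi-likelihood test, with p-values adjusted after Benjamini and Hochberg (BH) over all 15508 genes, adjusted p below 0.05). That is 6.82% of the 132 tested, where 19.6% of all genes tested were called, 9.8% higher and 9.85% lower. Most models are scarce, and among genes averaging less than 5 CPM the shares were 6.03% of 116 models and 7.25% of all. The median log2 fold change was 0.43 over tested models and 0.19 over all genes tested. Over the 104 models with more than 3 counts in either group, the median log2 ratio of pooled CPM, with 3 counts as a floor per group, was 0.15, and over all such genes 0.17.

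Hsc_004540 rose most. It is a minus-strand model at chr15:36799986-36809918 (mm9) with 3 transcripts, 73302 bp upstream of Ywhaz, which encodes a 14-3-3 adaptor protein. It had 39.1, 27.9, 23.3 and 17.3 CPM in KO-ITD leukemias and 0.894 and 0.658 CPM in KO-GFP thymocytes. It had 22.5, 19.3 and 13.7 CPM in WT-ITD leukemias and 0.760 and 0.405 CPM in WT-GFP thymocytes. Every leukemia was above every thymocyte library of its genotype, with no overlap. The log2 fold change was 5.11 (SE 0.53, adjusted p 0.00022, edgeR quasi-likelihood, BH) for KO-ITD against KO-GFP. It was 4.97 (SE 0.53, adjusted p 0.00057, same test) for WT-ITD against WT-GFP.

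In knock-in marrow Hsc_004540 was at 7.99 CPM in KO-KI, 18.8 and 12.9 CPM in HET-KI and 17.8, 13 and 10.2 CPM in WT-KI. All knock-in libraries thus also lay above the thymocytes. For WT-KI against WT-GFP the log2 fold change was 4.53 (SE 0.52, adjusted p 7.04e-05, edgeR quasi-likelihood, BH). All 3 calls held when each library was left out in turn, and the calls for KO-ITD and WT-ITD also held in thymus libraries alone and in the first submission alone. Ywhaz itself averaged 627.4 CPM in KO-ITD and 509.6 CPM in KO-GFP, a log2 fold change of 0.30 that did not pass (adjusted p 0.235, edgeR quasi-likelihood, BH).

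The separately assembled loci bear on the same locus. In the authors' deposited FPKM values, a locus covering at least 50% of Hsc_004540 on both sides was present in all 5 ITD leukemias with such a file. Its FPKM was 10.4 and 8.49 in KO-ITD replicates 1 and 2 and 6.77, 6.02 and 4.39 in WT-ITD replicates 1 to 3. None of the 4 GFP files held a matching locus, and WT-GFP replicate 1 held a fragment of 647 bp. Both file kinds come from the same libraries, so this is no independent sample.

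Cell markers also differed between these groups. The erythroid list averaged at least 1 CPM for 10 of 10 genes in KO-ITD and 3 of 10 in KO-GFP, with sums of 463 to 1486 CPM in KO-ITD and 14.8 and 139 CPM in KO-GFP, and Rhag at 0 in KO-GFP. The granulocyte and monocyte list averaged at least 1 CPM for 15 of 15 genes in KO-ITD and 11 of 15 in KO-GFP, with sums of 280 to 1960 CPM in KO-ITD and 72.2 and 128 CPM in KO-GFP and no marker at 0. The stroma list averaged at least 1 CPM for 8 of 9 genes in KO-ITD and 2 of 9 in KO-GFP, with Sparc at 0 in KO-GFP. Its sum was 230, 122, 553 and 2150 CPM in KO-ITD and 8.50 and 8.15 CPM in KO-GFP. The part of these cells in the results was not tested.

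Hsc_003288 also rose. It lies at chr13:37672418-37682257 (mm9, plus strand), 161513 bp from Ly86, which encodes a partner of the Toll-like receptor homolog CD180. It had 6.49, 1.92, 6.97 and 6.67 CPM in KO-ITD and 0.256 and 0.405 CPM in KO-GFP. The log2 fold change was 4.02 (SE 1.01, adjusted p 0.0178, edgeR quasi-likelihood, BH), with no overlap. The WT-ITD leukemias had 0.886, 0.184 and 1.53 CPM against 0.680 and 0.527 CPM in WT-GFP, values that overlap. Whether Dnmt3a and FLT3-ITD interact was tested over all genes, and Hsc_003288 was not among calls of that test, which had none. In knock-in marrow it was at 6.75 CPM in KO-KI, 3.46 and 20.8 CPM in HET-KI and 3.73, 6.97 and 4.68 CPM in WT-KI. The call was lost without either KO-GFP library (adjusted p 0.209 and 0.0955, edgeR quasi-likelihood, BH). Its myeloid neighbour Ly86 averaged 21.5 CPM in KO-ITD and 3.87 CPM in KO-GFP and did not pass.

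Of the 7 models that were lower in KO-ITD, Hsc_008211 and Hsc_010405 were the abundant ones. Hsc_008211 (mm9, chr3:94819440-94825342, plus strand) starts 280 bp from Zfp687, a zinc finger gene, and runs away from it. It had 1.78, 2.80, 1.92 and 3.15 CPM in KO-ITD and 15.9 and 8.20 CPM in KO-GFP. The log2 fold change was -2.31 (SE 0.67, adjusted p 0.0313, edgeR quasi-likelihood, BH). Zfp687 fell as well, averaging 60.4 CPM in KO-ITD and 101.6 CPM in KO-GFP, by 0.75 on the log2 scale (adjusted p 0.0314, same test). The pair correlated at 0.707 over 17 libraries.

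Hsc_010405 (mm9, chr5:123583664-123590646, minus strand) lies 1026 bp upstream of Rhof, which encodes a small GTPase of filopodia. It had 16.2, 17.3, 28.5 and 9.34 CPM in KO-ITD and 63.1 and 35.1 CPM in KO-GFP, a log2 fold change of -1.46 (SE 0.45, adjusted p 0.0380, edgeR quasi-likelihood, BH). It is named under this comparison after its values were seen. Rhof averaged 22.9 CPM in KO-ITD and 36.8 CPM in KO-GFP and did not pass (adjusted p 0.26, same test).

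The other 5 were less abundant. Hsc_003716, 11451 bp from Cd180, a Toll-like receptor homolog of B cells, and head to head with it, had 0.382, 0, 0 and 0 CPM in KO-ITD and 1.92 and 2.43 CPM in KO-GFP. That is 3 counts over the KO-ITD libraries against 78 over KO-GFP, a ratio of 31.3 in CPM (95% counting interval 10.3 to 155). B cell markers did not fall with it, at 38.1 to 163 CPM in KO-ITD and 51.3 and 72.5 CPM in KO-GFP. Hsc_007931, near the splicing factor gene Srsf6, had 1 count over KO-ITD and 43 over KO-GFP (ratio 51.8, 95% counting interval 8.81 to 2091). Hsc_012749, named here after its values were seen, had 2 counts over KO-ITD and 29 over KO-GFP (ratio 17.5, 95% counting interval 4.42 to 151).

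Hsc_014063 and Hsc_014064 lie on the X chromosome upstream of Arxes2. Hsc_014063 had 0.255, 0.220, 0.601 and 0.243 CPM in KO-ITD and 2.62 and 0.760 CPM in KO-GFP (a log2 change of -2.35, SE 0.74, adjusted p 0.0423, edgeR quasi-likelihood, BH). Hsc_014064 had 0.764, 1.43, 2.04 and 0.607 CPM in KO-ITD and 7.35 and 2.38 CPM in KO-GFP (-1.99, SE 0.61, adjusted p 0.0387, same test). Xist, the RNA that coats the inactive X chromosome, had 0, 2276, 0 and 0 CPM in KO-ITD replicates 1 to 4, against 2838 and 1802 CPM in KO-GFP. The part of sex was not tested. Without KO-GFP replicate 1 the log2 changes were -1.20 and -0.97 and neither passed. Of 6 refits that each left out 1 library, 5 lost the call of Hsc_014063 and 3 that of Hsc_014064.

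All 9 calls were of models whose libraries do not overlap between KO-ITD and KO-GFP, and without overlap were 25% of tested models and 44.8% of all genes tested. The count depends on the thymocytes, and it fell when either KO-GFP library was left out. The count over all genes fell with it, and Hsc_004540 kept its call. Without KO-ITD replicate 1, 4 models and 2321 of all genes were called, against 3047 genes in the full fit. The compared groups alone gave 1 model, Hsc_004540, and 439 genes. Without KO-ITD replicate 3 there were 9 models and 2672 genes, and 5 of these models were among the 9 above.

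With intact Dnmt3a, Hsc_004540 was the 1 model called between WT-ITD and WT-GFP, 0.758% of 132 tested where 2.24% of all genes were called, 1.35% higher and 0.89% lower (edgeR quasi-likelihood, BH). At unadjusted p below 0.05 there were 17 models and 2749 of all genes, and DESeq2 called 6 models and 1425 genes. Hsc_003716 had 0, 0 and 0.184 CPM in WT-ITD and 3.00 and 3.00 CPM in WT-GFP without overlap, and missed the threshold (adjusted p 0.0982, edgeR quasi-likelihood, BH).

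The second question was what loss of Dnmt3a changes at equal FLT3 status. No model was called between KO-ITD and WT-ITD, where 0.49% of all genes were called, 0.206% higher and 0.284% lower (edgeR quasi-likelihood, BH). There were 18 models and 3144 of all genes at unadjusted p below 0.05, and DESeq2 called 5 models and 1288 genes. None was called between KO-GFP and WT-GFP, nor was any other gene (0.0%), with 1 model and 74 of all genes at unadjusted p below 0.05. There DESeq2 called no model and 12 genes. For the interaction of Dnmt3a and FLT3-ITD no model and no gene was called (0.0%), with 4 models and 838 of all genes at unadjusted p below 0.05. For it DESeq2 called no model and 80 genes. Without WT-ITD replicate 3, edgeR called no model and 39 genes for the interaction.

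**Figure D2:**
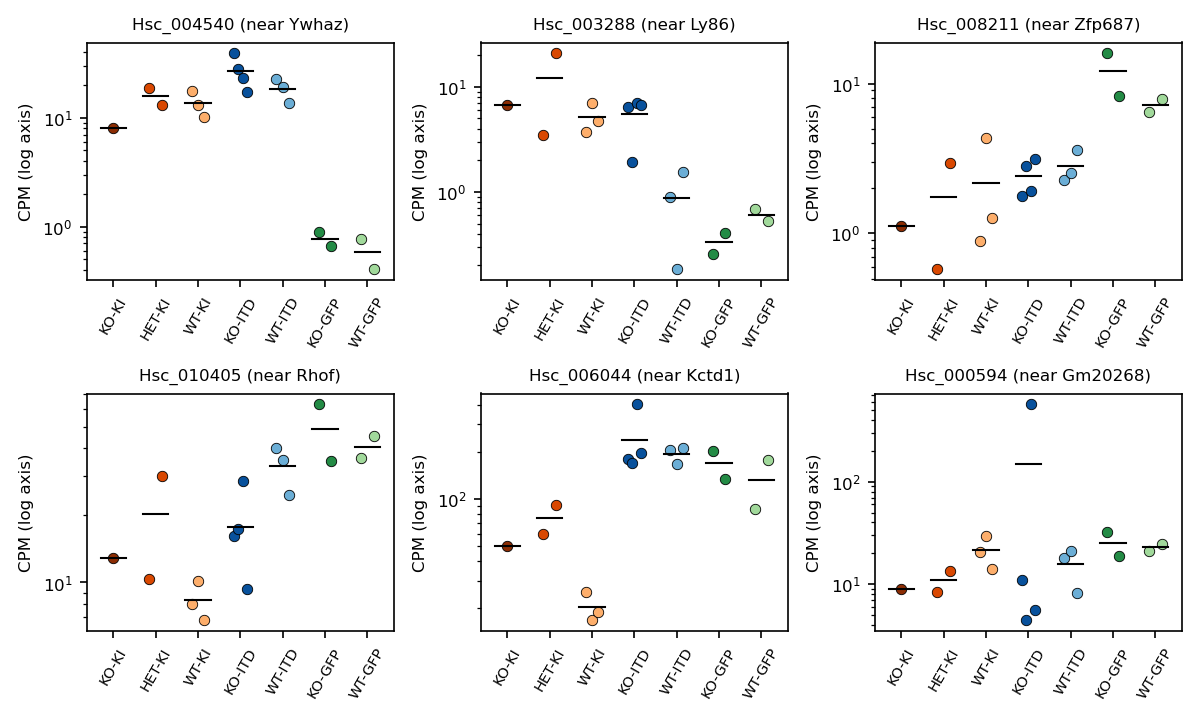
CPM on log axes of 6 models in each library (points) of the 7 groups, with group means as lines. Hsc_004540 was at 7.99 CPM or above in every leukemia and knock-in library and at 0.894 CPM or below in the GFP thymocytes, and 1 KO-ITD library set the mean of Hsc_000594.

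A position-dependent reading was needed for Hsc_004576. This minus-strand model spans chr15:62896700-63526397 (mm9) beyond the 3′ end of the oncogene Myc and overlaps Gm20740. Its 23 transcripts fall into 3 blocks, and the deposited gene count equals that of 1 transcript, from 1155119 bp beyond Myc. That count was 21.0, 35.2, 4.57 and 2.79 CPM in KO-ITD and 31.7, 20.7 and 36.1 CPM in WT-ITD. It was 3.71 and 1.52 CPM in KO-GFP, 1.04 and 2.03 CPM in WT-GFP, 0 CPM in KO-KI and at most 0.192 CPM in HET-KI and WT-KI.

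Every WT-ITD library was above both WT-GFP libraries, but neither that difference (log2 fold change 4.26, SE 1.07, adjusted p 0.0579) nor that between KO-ITD and KO-GFP (2.61, SE 0.96, adjusted p 0.0690) passed (edgeR quasi-likelihood, BH). KO-ITD replicates 3 and 4, the 2 thymus libraries of the second submission, were the low ones. Tissue and submission cannot be told apart there. The 11 transcripts that begin 1074784 bp beyond Myc followed the same pattern, with 26.2, 42.6, 12 and 5.58 CPM in KO-ITD and 44.0, 26.4 and 50.4 CPM in WT-ITD. The 11 transcripts from 1504897 bp beyond Myc were distributed otherwise. They had 69 counts in HET-KI, 64 of them in replicate 1 and 5 in replicate 2, and 53 in WT-KI, 4 over all 11 retroviral libraries and 0 in KO-KI. Myc itself was at 133 to 283 CPM in KO-ITD, 124 to 168 CPM in WT-ITD, 43.4 and 63.7 CPM in KO-GFP and 41.3 and 49.5 CPM in WT-GFP.

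**Figure D3:**
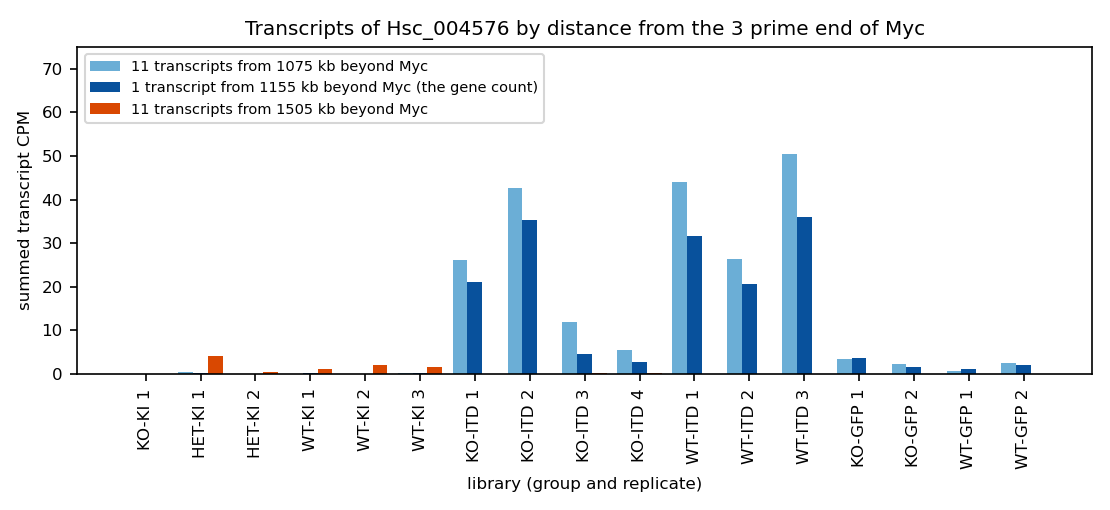
Summed CPM of the transcripts of Hsc_004576 in each library, in 3 blocks by distance from the 3′ end of Myc (bars; the legend gives distances in kb). The blocks nearest Myc were counted in retroviral leukemias, up to 50.4 CPM, and the farthest block in HET-KI and WT-KI marrow, up to 4.1 CPM in HET-KI replicate 1.

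The third question concerned the knock-in leukemias and the pre-leukemic marrow. The model set as a whole was lower in the KO-KI leukemia. Its median over all 159 models was 0.161 CPM in KO-KI, 0.834 and 0.429 CPM in HET-KI replicates 1 and 2, and 0.889, 1.32 and 0.638 CPM in WT-KI replicates 1 to 3. Of 140 models with more than 3 counts in either group, 31 (22.1%) had a pooled level above that of WT-KI, where 47.8% of all such genes did. The median log2 ratio of pooled CPM, with 3 counts as a floor per group, was -0.97 for models and -0.05 for all genes. For HET-KI against WT-KI it was -0.07 for 150 models and 0.06 for all genes, and without HET-KI replicate 1 it was -0.14 for 142 models and -0.01 for all genes. KO-KI is 1 library, so its spread is assumed from the other groups.

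Called were 1 model lower in KO-KI and 1 higher in HET-KI, each 0.758% of 132 tested, by edgeR quasi-likelihood with BH adjustment. Of all genes, 3.01% were called for KO-KI (2.11% higher, 0.903% lower) and 5.0% for HET-KI (3.43% higher, 1.57% lower). The first was Hsc_008123 (mm9, chr3:68489410-68492122, plus strand), 2444 bp upstream of Il12a, which encodes a subunit of interleukin 12. It had 0 CPM in KO-KI, 0.449 and 0.358 CPM in HET-KI and 2.31, 5.66 and 5.62 CPM in WT-KI. KO-KI was at least 31.6-fold lower than WT-KI against a floor of 3 counts (adjusted p 0.0468, edgeR quasi-likelihood, BH). The call was lost without any of the 3 WT-KI libraries. Il12a itself was at 10.6 CPM in KO-KI and averaged 13.8 CPM in WT-KI.

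The second was Hsc_006044 (mm9, chr18:15353254-15434499, plus strand), 43299 bp from Kctd1, which encodes an adaptor with a BTB domain. It was at 50.2 CPM in KO-KI, 59.8 and 91.6 CPM in HET-KI and 25.6, 16.8 and 18.9 CPM in WT-KI. The retroviral libraries had 86.7 to 402 CPM. HET-KI exceeded WT-KI without overlap (log2 fold change 1.89, SE 0.40, adjusted p 0.0253, edgeR quasi-likelihood, BH). The log2 fold change was 2.17 without HET-KI replicate 1 and 1.55 without HET-KI replicate 2. Of 5 refits that each left out 1 library, 4 lost the call. It was lost whichever WT-KI library was left out. Kctd1 moved the other way, averaging 21.9 CPM in HET-KI and 42.5 CPM in WT-KI, and fell by 0.96 on the log2 scale (adjusted p 0.0411, same test). Across 17 libraries the pair correlated at -0.764.

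The HET-KI leukemias differed from each other in these models. Hsc_005621, 55879 bp from the tryptophan catabolism gene Haao, was at 107 and 0.358 CPM in HET-KI replicates 1 and 2 and at 17.6, 26.6 and 17.8 CPM in WT-KI. Hsc_007124, 7185 bp upstream of Lmo2, a transcription cofactor of stem and erythroid cells, was at 51.2 and 2.15 CPM in HET-KI and 12.6, 24.7 and 21.4 CPM in WT-KI. Hsc_010757, 43305 bp from Gata2, a stem cell transcription factor, was at 20.1 and 1.07 CPM in HET-KI and 0.178, 1.13 and 1.32 CPM in WT-KI. For all 3, HET-KI replicate 1 was the highest of the 17 libraries, and KO-KI had 0.161, 0.965 and 0.536 CPM. Hsc_005621 and Hsc_007124 were chosen after their values were seen.

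Sums of lineage markers also differed between the HET-KI leukemias. The stem and progenitor sum was 1651 and 419 CPM in HET-KI replicates 1 and 2, and the granulocyte and monocyte sum was 4118 and 20386 CPM. KO-KI resembled replicate 2 in both sums, at 448 and 17188 CPM, and WT-KI had granulocyte and monocyte sums of 3252 to 5087 CPM. No granulocyte and monocyte marker was at 0 in any knock-in group. Mecom and Hoxb5 were at 0 in KO-KI and Mecom in HET-KI. Kit and Tek of the stem and progenitor list ran against its sum. In HET-KI replicates 1 and 2, Kit was at 31.0 and 158 CPM and Tek at 0.064 and 0.215 CPM. The part of cell makeup in these differences was not tested. Without HET-KI replicate 1, the log2 fold change against WT-KI was 2.17 for Hsc_006044 and 1.87 for Hsc_010405. It was -5.82 for Hsc_005621 and -0.97 for Hsc_002439, and Hsc_001600 was lower too. These models were picked by that fit. Hsc_001600, 52904 bp from Bcl11a, had 1.22 and 0 CPM in HET-KI replicates 1 and 2 and 25.2, 54.3 and 3.53 CPM in WT-KI. With 1 HET-KI library left, HET-KI is assumed to vary like the other groups. The number of calls among models and among all genes changed with the HET-KI library left out.

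**Figure D4:**
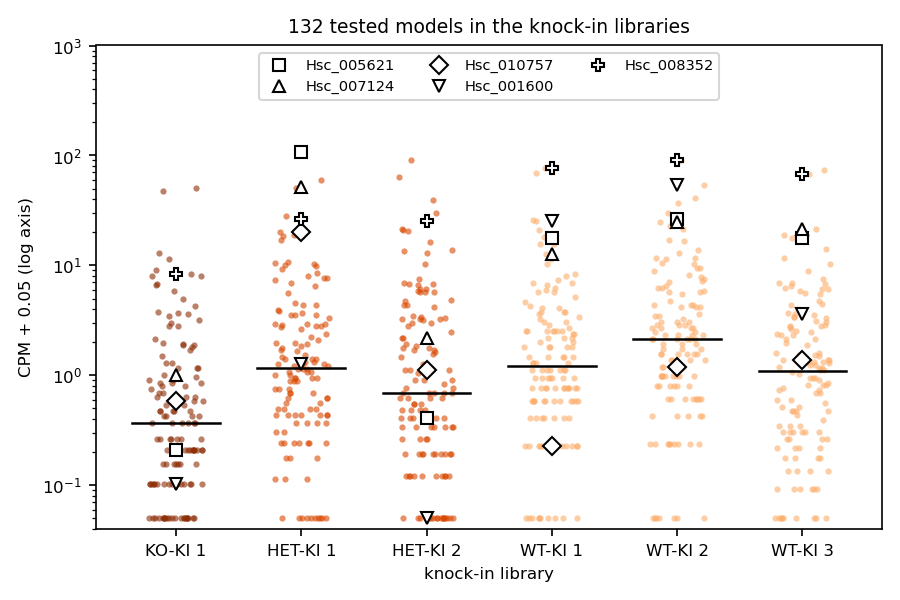
CPM + 0.05 on a log axis of the 132 tested models (points) in the 6 knock-in libraries, with the median of each library as a line and 5 models marked by symbols. The medians before the offset were 0.322 CPM in KO-KI, 1.12 and 0.644 CPM in HET-KI and 1.16, 2.07 and 1.04 CPM in WT-KI, and Hsc_005621 was at 107 and 0.358 CPM in the HET-KI libraries.

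The widest contrast was pre-leukemic WT-KI marrow against WT-GFP thymocytes, in which tissue, sorting, model, submission and sex cannot be told apart. Xist was at 0.178, 2.26 and 1.58 CPM in WT-KI and 1463 and 1655 CPM in WT-GFP, and the Y-linked gene Ddx3y at 83.5 to 102 CPM in WT-KI and 0 in WT-GFP. Of 132 tested models, 38 were higher and 4 lower in WT-KI (edgeR quasi-likelihood, BH). At 31.8% the called share was close to that of all genes, 31.9%, but the direction was not: 15.1% of all genes were higher and 16.7% lower. Below a mean of 5 CPM 29.3% of 116 models and 18% of all genes were called, and at 5 CPM or more 50% of 16 models and 37.8% of all genes. Of 144 models among the 159 with more than 3 counts in either group, 110 (76.4%) had the higher pooled level in WT-KI, where 52.7% of all such genes did. The median log2 ratio of pooled CPM was 1.72 for models and 0.09 for all genes. All 42 called models were without overlap between the groups, as were 72.0% of tested models and 72.4% of all genes tested. The count depends on the WT-GFP pair, and it fell when either of these libraries was left out. The count over all genes fell with it. Leaving out WT-KI replicate 2 gave 29 models and 3588 of all genes, against 4942 genes in the full fit.

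Most of the 38 were near absence in thymocytes: 13 had no count in WT-GFP and 27 had 0 to 3. In 32 of the 38 the mean was below 1 CPM in all 4 retroviral groups. Together the 38 held 42.2 CPM in KO-KI, 323 and 102 CPM in HET-KI and 248, 384 and 210 CPM in WT-KI. The WT-KI values are high, and the WT-GFP counts low, by choice of the models. How many of all genes called higher had so few counts in WT-GFP was not examined.

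Hsc_005996, 94544 bp upstream of Haao, had the largest fitted rise. It had 6.93, 9.43 and 6.51 CPM in WT-KI and no count in WT-GFP, at least 116-fold higher (adjusted p 0.0109, edgeR quasi-likelihood, BH). Hsc_002494 begins 819 bp from Mir10a in the Hoxb cluster, on the opposite strand. It had 3.38, 10.6 and 2.77 CPM in WT-KI and no count in any retroviral library, at least 67.3-fold higher than WT-GFP (adjusted p 0.00789, same test). Its level was 0.161 CPM in KO-KI and 0.641 and 0.358 CPM in HET-KI.

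Hsc_010962, 508209 bp from the glutamate receptor gene Grm8, had 5.69, 2.45 and 2.72 CPM in WT-KI and none in WT-GFP (at least 52.4-fold, adjusted p 0.0193, edgeR quasi-likelihood, BH). Hsc_008656, near Fnbp1l, whose product bends membranes, had 2.84, 4.15 and 3.06 CPM in WT-KI and none in WT-GFP (at least 52.9-fold, adjusted p 0.00241, same test). Fnbp1l averaged 76.8 CPM in WT-KI and 9.17 CPM in WT-GFP and did not pass (adjusted p 0.0744, same test). Both models were at or below 0.101 CPM in every retroviral library.

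The most abundant of the 38 was Hsc_008352 (mm9, chr3:142678867-142716186, plus strand), 133899 bp from Pkn2, a protein kinase gene. It was chosen after its values were seen. It had 77.3, 90.9 and 67.8 CPM in WT-KI and 0.600 and 0.527 CPM in WT-GFP, a log2 fold change of 7.10 (SE 1.55, adjusted p 0.00483, edgeR quasi-likelihood, BH). The leukemias had less, 8.36 CPM in KO-KI and 26.2 and 25.1 CPM in HET-KI, all below every WT-KI library. Pkn2 averaged 102 CPM in WT-KI and 120 CPM in WT-GFP. Hsc_008701, antisense within its span, had 3.55, 7.73 and 5.45 CPM in WT-KI and 2 counts over WT-GFP, and the pair is among those that counting without strand could mix.

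Several loci held more than 1 such model. Around Haao, Hsc_005621, Hsc_005622 and Hsc_005996 passed and Hsc_005997 did not (adjusted p 0.0513, edgeR quasi-likelihood, BH). Haao rose too, averaging 13.8 CPM in WT-KI and 1.17 CPM in WT-GFP (adjusted p 0.0164, same test). Near Ywhaz and Pabpc1, the poly(A) binding protein gene, Hsc_004273, Hsc_004537, Hsc_004538 and Hsc_004540 all rose. Hsc_007124 and Hsc_007125 flank Lmo2, which averaged 423 CPM in WT-KI and 2.15 CPM in WT-GFP and rose as well (adjusted p 0.000777, same test). Hsc_008340 and Hsc_008693 near Dapp1, and Hsc_009114 and Hsc_009574 near Gm572, were further pairs. Both pairs overlap on opposite strands, as do Hsc_005622 with Hsc_005996 and Hsc_004273 with Hsc_004538. Counting without strand could mix the reads within each. These models were chosen after their values were seen, and models at 1 locus are not independent.

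The models called lower in WT-KI were Hsc_006044 (log2 fold change -2.69, SE 0.41, adjusted p 0.00048), Hsc_010405 (-2.30, SE 0.49, adjusted p 0.0043), Hsc_014064 (-1.91, SE 0.67, adjusted p 0.0456) and Hsc_004576 (-4.01, SE 1.16, adjusted p 0.0199), by edgeR quasi-likelihood with BH adjustment. Hsc_014064 is X-linked, and its call was lost when any 1 of the 5 libraries was left out. Hsc_006044 had 16.8 to 25.6 CPM in WT-KI, against 86.7 and 177 CPM in WT-GFP. For Hsc_004576 the call depends on which transcripts are counted. With all 23 transcripts summed, it did not pass (-0.91, adjusted p 0.48, same test).

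**Figure D5:**
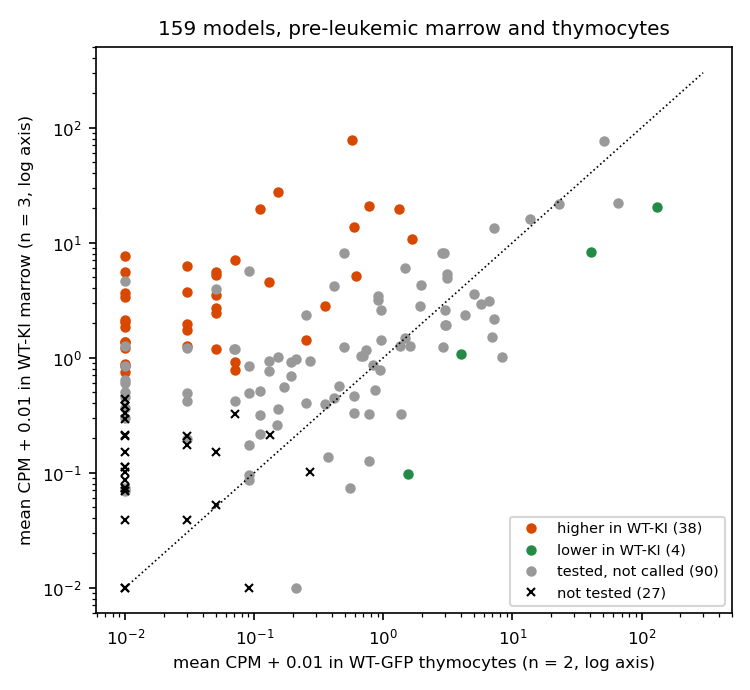
Mean CPM + 0.01 of each of the 159 models in WT-KI marrow (vertical, n = 3) and WT-GFP thymocytes (horizontal, n = 2) on log axes, with equality dotted. The 38 models called higher in WT-KI sit mostly at the left edge, where WT-GFP had few or no counts, and 4 were called lower.

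Neighbouring genes were compared last. In 112 pairs both model and nearest gene were tested, and the median correlation of log2 CPM over the 17 libraries was 0.336, positive in all but 25 pairs. It was 0.328 for the 22 pairs with starts within 1 kb and 0.371 for the 23 pairs over 50 kb apart. Pairs share library, tissue and depth, so these values describe the libraries. Of 37 such models called in WT-KI against WT-GFP, the neighbour was called the same way for 15, the opposite way for 2 and not called for 20. Of all genes tested, 31.9% were called in this contrast, 15.1% higher and 16.7% lower. Hsc_013044, 744 bp downstream of the necroptosis gene Mlkl, had an r of 0.959. Hsc_007124 and Lmo2 had 0.930, and Hsc_007879 and Csnk2a1, a kinase subunit gene whose start is 21 bp away, had -0.707. These 3 pairs were chosen after their values were seen.

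A list of 39 symbol-named noncoding genes present in the table gives a yardstick, and 31 of them were tested. In KO-ITD against KO-GFP 6 rose and 4 fell (32.3%, edgeR quasi-likelihood, BH), beside 2 and 7 of the 132 models (6.82%) and 19.6% of all genes called. The 6 were the small RNA components Rmrp and Rpph1, the snoRNA hosts Snhg3, Snhg4 and Snhg6, and Pvt1, the noncoding neighbour of Myc. The 4 that fell were Dleu2, Tug1, Ftx and 6720401G13Rik. Pvt1 had 11.6, 9.45, 27.1 and 9.10 CPM in KO-ITD and 1.28 and 1.32 CPM in KO-GFP, a log2 fold change of 3.45 (adjusted p 0.0215, same test). In WT-KI against WT-GFP 6 of the list rose and 3 fell (29.0%), beside 38 and 4 of the models (31.8%) and 31.9% of all genes called. The list and the models were not matched for level, and the difference between them was not tested.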

How the data were processed

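Polyadenylated RNA of 19 records, which are 17 libraries, was sequenced after TruSeq preparation, per the labels' protocols. The authors deposited estimated counts of fragments per gene and per transcript, not scaled for depth. They also deposited FPKM values for 9 libraries, on loci assembled in each library alone, and gene models on mm9 whose positions are used as given. Per the submitters' processing notes, TopHat2 2.0.10, Cufflinks 2.1.1 and Cuffdiff 2.1.1 or 2.2.1 were used. No source used here names the counter, its use of strand or its filters.

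Of nonzero gene values 98.3% were whole within 0.001, and all were rounded. Counts were normalised with TMM factors, filtered with filterByExpr and fitted with edgeR 4.0.16 (R 4.3.3) once over 17 libraries with 1 mean per group. Contrasts were tested two-sided by quasi-likelihood, with Benjamini-Hochberg adjustment over all 15508 genes and a threshold of 0.05. The script was tested on simulated data. Bounds use a floor of 3 counts over a group. Counting intervals are exact, at 95%, and cover counting error only. Correlations use log2(CPM + 0.1). FPKM loci matched a model at 50% reciprocal overlap. GENCODE transcripts matched by intron length, strand, chromosome and neighbour.

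Named models are, per comparison, up to 4 rises and 4 falls that passed, with libraries that do not overlap and a mean of 1 CPM or more where higher. Also named are the 10 highest by RPKM and the largest tau per group, with nearest genes. The members and lists were chosen with earlier results of these data known. Alternatives were DESeq2 1.42.0, its size factors, no filter, the compared groups, first submission or thymus alone, a replicate block, leaving out each library and, chosen after seeing the data, transcript sums for 2 models and 3 descriptive values without a single library.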

Additional observations from a re-analysis of the deposited data

Results flagged for a closer look

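In groups of 4 to 10 libraries, here KO-ITD alone, a library is listed where its gap to the next is large against the group's range by Dixon's criterion, which chance meets in about 5% of groups. KO-ITD replicate 3 was the high library in most cases. It had 568.8 CPM of Hsc_000594, at chr1:103601478-103792209 (mm9, minus strand), against 4.45 to 10.9 CPM in the other KO-ITD libraries and at most 32.1 CPM in any other. Hsc_000595, which overlaps it on the same strand, had 350 CPM there. The sum of all models was 1808 CPM in that library, and 31.5% of its model counts were those of Hsc_000594. KO-ITD replicate 3 was also highest for Hsc_006044 (402.1 CPM), Hsc_010791 (6.73 CPM), Hsc_011312 (2.29 CPM) and Hsc_014063 (0.601 CPM). Leaving it out changed no call of Hsc_004540. In the other cases Hsc_003288 was lowest in KO-ITD replicate 2 (1.92 CPM), Hsc_007931 highest in KO-ITD replicate 4 (0.121 CPM) and Hsc_003716 highest in KO-ITD replicate 1 (0.382 CPM).

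A signal also lay outside the gene count. The 11 transcripts of Hsc_004576 farthest from Myc had 122 counts over the HET-KI and WT-KI libraries and 0 in WT-GFP, and the deposited gene count leaves them out.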

How the results depend on the processing

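The counts of called models were small and moved with the test and with single libraries, as did those over all genes. The cause was not tested. Of all genes, DESeq2 called 5015 in KO-ITD against KO-GFP, 1425 in WT-ITD against WT-GFP, 1288 in KO-ITD against WT-ITD and 2383 in HET-KI against WT-KI. The compared groups alone called 439 genes in KO-ITD against KO-GFP, 904 in WT-ITD against WT-GFP and 8646 in WT-KI against WT-GFP. For the single KO-KI library both settings also called more genes than the main fit. DESeq2 called 16 models in KO-ITD against KO-GFP, 6 in WT-ITD against WT-GFP, 5 in KO-ITD against WT-ITD, 8 in HET-KI against WT-KI and 12 in KO-KI against WT-KI. With the compared groups alone the counts were 1 for KO-ITD against KO-GFP, 3 for WT-ITD against WT-GFP, 20 for KO-KI against WT-KI and 69 for WT-KI against WT-GFP. For HET-KI against WT-KI they called 1 model too, but 0 shared with the main count, since Hsc_006044 then had an adjusted p of 0.0548 (edgeR quasi-likelihood, Benjamini-Hochberg). The first submission alone gave 14, 6 and 1 in KO-ITD against KO-GFP, WT-ITD against WT-GFP and KO-ITD against WT-ITD. Beside these stood 3635, 1268 and 246 of all genes. Thymus alone gave 2 in WT-ITD against WT-GFP, and no filter gave 0 in KO-KI against WT-KI.

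Leaving out each library gave 1 to 9 for KO-ITD against KO-GFP, 1 to 3 for WT-ITD against WT-GFP, 0 to 2 for KO-ITD against WT-ITD, 0 to 5 for HET-KI against WT-KI, 0 to 0 for KO-KI against WT-KI and 8 to 38 for WT-KI against WT-GFP. Same-numbered libraries correlated at -0.287 to 0.369 in their deviations from group means. In groups of 2 these deviations mirror each other, so the values cannot decide whether the numbers pair libraries. The replicate block gave 5 in KO-ITD against KO-GFP, 2 in WT-ITD against WT-GFP and 0 in KO-KI against WT-KI. A library had a median of 103 models at 1 count or more, and 67 at 5 or more.

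Over 23 fold changes of named models and 275 recalculations, 192 kept their call, 83 lost it and 0 reversed, and 6 of the 23 kept it under every setting. The fold changes of Hsc_004540 kept their call throughout. Of 132 tested models, 116 averaged under 5 CPM.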

Other observations

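Hsc_013303 begins 367 bp downstream of Rora, which encodes a nuclear receptor, on the same strand. It was at 80.8 CPM in KO-ITD replicate 3, between 0.495 and 6.91 CPM in the other KO-ITD libraries and at 8.11 and 8.51 CPM in KO-GFP. Across 17 libraries it correlated with Rora at 0.938. Whether Hsc_013303 is a separate RNA or an extension of Rora transcripts was not tested. Hsc_009143, 8209 bp from the stem cell regulator gene Prdm16, was at 0.738, 0.490 and 0 CPM in WT-ITD replicates 1 to 3, at 0.641 and 0 CPM in HET-KI and at 0.355, 0.943 and 0.0426 CPM in WT-KI. It had no count in KO-ITD, in GFP thymocytes or in KO-KI. Both models were chosen after their values were seen, and no test result is given for them here.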
